A study of Rattus norvegicus with 16 samples.

Results

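The nuclear genes of the mitochondrial respiratory chain were followed in rat eye and leg muscle, at the neuromuscular junction and in fibre away from it. Members were all genes with a probe set of a single annotated symbol that starts with Nduf, Uqcr, Atp5 or Cox followed by 4 to 8, or is Sdha, Sdhb, Sdhc or Sdhd. The rule took in 86 genes, each read by the probe set with the highest mean level, and 83 of them passed the filter on low values among 10416 genes tested in all. The 3 that did not pass were Cox4i2, Cox6b2 and Cox7b2, all isoforms of cytochrome c oxidase subunits. Of the 86 genes, 34 belong to complex I, 4 to complex II, 7 to complex III, 16 to complex IV and 15 to complex V, and 10 carry a symbol of the rule without being a subunit. Those 10 are 6 Ndufaf assembly factors, the ATP synthase inhibitor Atp5if1, the supercomplex factor Cox7a2l, Ndufa4l2 and the pseudogene Cox6c-ps1.

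The respiratory chain sits in the inner mitochondrial membrane. Complexes I and II pass electrons from NADH and succinate to ubiquinone, complex III passes them on to cytochrome c, and complex IV, cytochrome c oxidase, hands them to oxygen. The proton gradient this builds drives complex V, the ATP synthase. Extraocular muscles are known for a high content of mitochondria and resistance to fatigue, and the junction is known for dense mitochondria on both its nerve and its muscle side.

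The samples were 16 arrays from 4 rats: rectus extraocular muscle (EOM), which moves the eye, and tibialis anterior (TA), a muscle of the lower leg, each cut by laser from frozen sections into junction regions (the groups EOM_synapse and TA_synapse) and non-synaptic fibre regions (EOM_fiber and TA_fiber). Every group had 4 arrays, 1 from each of the rats numbered 15, 25, 27 and 29. Sections were stained for acetylcholinesterase to find the junctions, and the rats carried no stated treatment. Strain, sex and age are not given in the labels used here. About 1000 junctions and a like amount of fibre were pooled per muscle, so each array averages many fibres and the other cells cut out with them.
The 7 measured junction genes were all higher at both junctions than in fibre. Chrne, the adult acetylcholine receptor subunit, stood at 11.36 ± 0.14 (SD, n = 4) in EOM_synapse against 4.99 ± 0.83 in EOM_fiber, and at 10.42 ± 0.35 in TA_synapse against 4.39 ± 0.08 in TA_fiber. Levels here and below are log2(intensity + 16) after quantile normalization, group values are means ± SD of 4 arrays, and differences are log2 ± SE from limma with the rat as a block. A gene was called when its p, adjusted over all genes tested in that comparison, was below 0.05. On a log2(intensity + 16) scale the fold change of a dim gene is understated, and the number of arrays limits the precision.

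After quantile normalization the respiratory chain genes of the 2 muscles stood close together away from the junction. On the values as deposited the member median of EOM_fiber minus TA_fiber was -0.20, and after median centring -0.35. At the junction of both muscles the members were lower than in the fibre of the same muscle. The median over the 83 members was 0.01 for EOM_fiber minus TA_fiber and 0.13 for EOM_synapse minus TA_synapse. It was -0.43 for EOM_synapse minus EOM_fiber and -0.63 for TA_synapse minus TA_fiber, with medians over all genes tested of -0.04 and -0.01. In such regions of many cells, fewer muscle fibre profiles and less RNA per fibre cannot be told apart. As fold changes, the middle member was 1.35-fold lower at the EOM junction and 1.55-fold lower at the TA junction.

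At the TA junction 23 of the 83 members were called lower and 0 higher, against 3.53% of all genes called lower and 6.68% called higher. The EOM junction had 12 members called lower and 0 higher, where 4.51% of all genes were called lower and 5.62% higher. At an unadjusted p under 0.05, 51 members were lower at the TA junction, against 10.8% of all genes, and 33 at the EOM junction, against 12.9%. None was higher at either at that level, where 12.7% and 12% of all genes were. All 4 junction arrays lay below all 4 fibre arrays for 31 members in EOM, where this held for 8.92% of all genes, and for 16 in TA, where it held for 5.61%. Without the rat as a block the counts called lower were 14 in TA and 6 in EOM. The direction at both junctions held in all 3 scalings of the arrays, with medians of -0.65 and -0.53 in EOM and -0.86 and -0.90 in TA on the values as deposited and after median centring. The counts did not: 18 members were called lower at the EOM junction as deposited and 1 after median centring, and 54 and 32 at the TA junction.

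The median of the members was negative at both junctions in each animal. The median over members for the EOM junction was -0.52, -0.60, -0.44 and -0.29 in rats 15, 25, 27 and 29, and for the TA junction -0.76, -0.63, -0.61 and -0.49. No rat went the other way in either muscle. Among the 83 members, 67 were lower at the TA junction in all 4 rats and 46 at the EOM junction, compared with 17.0% and 18.1% of all genes. In both muscles and all 4 rats together 39 members were lower, which is 47.0% of the 83, against 6.71% of all genes. These shares describe 4 animals, and since the members are one functional group they are not independent of each other.

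**Figure D1:**
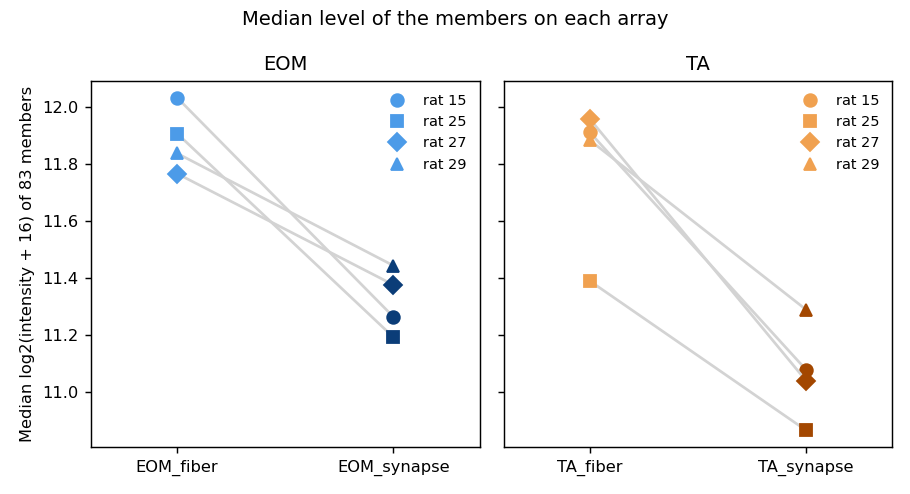
Each point is the median level, in log2(intensity + 16), of the 83 measured members on 1 array, and each grey line joins the fibre and the junction array of 1 rat. All 8 lines go down, and TA_fiber of rat 25 lies at 11.39, apart from the other 3 TA_fiber arrays at 11.88 to 11.96.

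The array TA_fiber 25 held the lowest median of the fibre arrays, 11.39, while the other 7 lay from 11.77 to 12.03. Without it 21 members were called lower at the TA junction. The counts changed with the removal of single arrays. In TA the count was 5 without TA_fiber 27, 9 without TA_fiber 15, 9 without TA_fiber 29, 6 without TA_synapse 15, 8 without TA_synapse 25 and 12 without TA_synapse 27. In EOM it was 4 without EOM_fiber 15, 4 without EOM_fiber 25, 7 without EOM_fiber 27, 18 without EOM_fiber 29, 3 without EOM_synapse 15, 4 without EOM_synapse 25, 7 without EOM_synapse 27 and 2 without EOM_synapse 29. Over all such fits the medians stayed between -0.58 and -0.32 in EOM and between -0.71 and -0.55 in TA.

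Whether the junction difference itself was unlike in EOM and TA was tested as an interaction. None of the 83 members passed, where 0.259% of all genes were called higher and 0.662% lower. At an unadjusted p under 0.05 there were 5 members, Atp5pf, Ndufs1, Ndufv1 and Atp5mk with the smaller fall in EOM and Atp5if1 the other way, where 4.25% and 6.49% of all genes were positive and negative at that level. The member median of the interaction was 0.17, and it was positive in all 4 rats (0.25, 0.08, 0.26 and 0.19).

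Between the muscles, few members differed. In fibre 3 members were called higher in EOM (Cox8a, Cox6a1 and Atp5if1) and 1 lower (Ndufaf4), a smaller share than the 8.4% and 7.16% of all genes called higher and lower. The sign of the member median in fibre was not settled: it was -0.20 on the values as deposited and -0.35 after median centring. It also turned negative without EOM_fiber 15 (-0.03), EOM_fiber 25 (-0.08) or TA_fiber 25 (-0.05). At the junction 10 members were called higher in EOM and 0 lower, which is 12.05% and 0% of the 83, against 7.82% and 8.6% of all genes. That count was 4 as deposited and 2 after median centring, and the median became 0.01 and 0.02. It was also 5 without EOM_synapse 25, 6 without EOM_synapse 29, 4 without TA_synapse 15 and 6 without TA_synapse 25. At an unadjusted p under 0.05, 18 members were higher and 4 lower in EOM at the junction, against 14.9% and 15.4% of all genes.

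**Figure D2:**
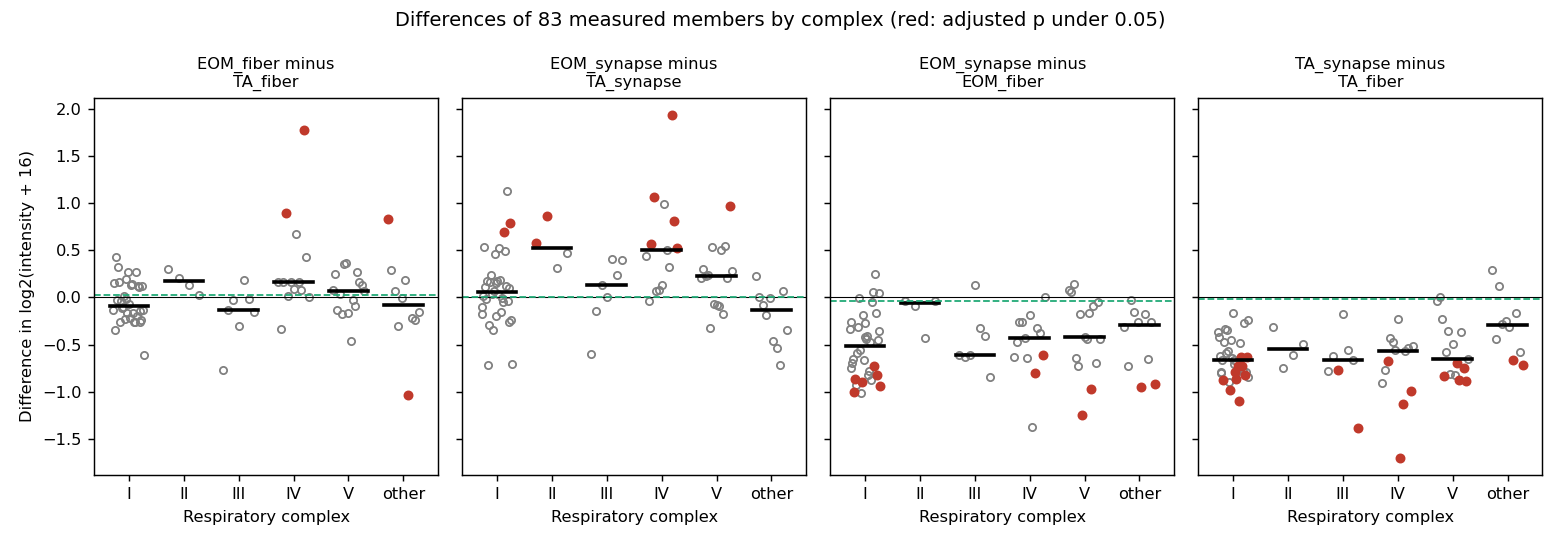
Each point is 1 of the 83 measured members, by complex on the x axis, and the y axis is the difference in log2(intensity + 16) between the groups named above each panel. Red points have an adjusted p under 0.05, black bars are the medians of each complex, and the dashed green line is the median of all genes tested. Cox8a lies apart at 1.78 and 1.94 in the 2 left panels, and in the 2 right panels the median of every complex lies below 0.

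Complex IV had 2 of the 4 calls between the fibres of the muscles and 5 of the 10 between their junctions. Of its 13 measured subunits, 2 were called higher in EOM fibre and 5 at the EOM junction, with 0 lower, and its median was 0.16 in fibre and 0.50 at the junction. On the values as deposited and after median centring the median in fibre turned to -0.07 and -0.22, and at the junction it was 0.31 and 0.32. Both calls in fibre, and 3 of the 5 at the junction, were of the tissue isoforms of subunits 6a and 8. In rodents each of these subunits has a ubiquitous form, Cox6a1 and Cox8a, and a heart and skeletal muscle form, Cox6a2 and Cox8b.

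Cox8a stood at 12.24, 10.90, 10.87 and 10.55 in EOM_fiber of rats 15, 25, 27 and 29, and at 9.38, 9.09, 9.50 and 9.47 in TA_fiber. At the junction it read 10.79, 10.85, 10.68 and 10.72 in EOM_synapse and 8.99, 7.93, 9.34 and 9.03 in TA_synapse. Every EOM array lay above every TA array. The difference was 1.78 ± 0.31 in fibre (3.43-fold, limma adjusted p = 0.00169) and 1.94 ± 0.31 at the junction (3.83-fold, adjusted p = 0.000847). Both calls held without any single array or rat and in all 3 scalings.

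Cox6a1, the other ubiquitous form, read 10.26, 9.40, 8.80 and 8.83 in EOM_fiber and 8.92, 7.76, 8.40 and 8.59 in TA_fiber. At the junction it read 9.41, 8.80, 9.06 and 8.95 in EOM and 8.08, 7.51, 8.15 and 8.21 in TA. Each rat had the higher value in EOM, although the fibre groups overlap. Its difference was 0.90 ± 0.26 in fibre (1.87-fold, adjusted p = 0.0327) and 1.07 ± 0.26 at the junction (2.09-fold, adjusted p = 0.0131). The fibre call was lost without EOM_fiber 15 or 25 or TA_fiber 15, 25 or 27, and after median centring. The junction call was lost only without TA_synapse 15 among single arrays, and over all fits without an array or a rat its adjusted p reached 0.0617.

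Of the muscle forms, Cox6a2 and Cox8b stood closer together. In EOM_fiber Cox6a2 read 12.50 ± 0.25, against 12.49 ± 0.40 in TA_fiber, and the fitted difference was 0.01 with a 95% interval of -0.48 to 0.51. At the junction its difference was 0.06 (-0.43 to 0.56). The fibre levels of Cox8b were 12.11 ± 0.21 in EOM and 11.68 ± 0.33 in TA, and their difference of 0.43 ± 0.17 was not called (adjusted p = 0.112). At the junction Cox8b was higher in EOM by 0.81 ± 0.17 (adjusted p = 0.00574), a call that held without any single array but not without rat 27 (adjusted p = 0.0511) or after median centring (adjusted p = 0.11). Cox7a1, also a muscle form, read 8.26 ± 0.87 in EOM_fiber and 7.60 ± 1.49 in TA_fiber. It read 6.89 ± 0.25 in EOM_synapse and 5.89 ± 0.18 in TA_synapse, where the groups do not overlap, and was not called between the muscles in either place.

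**Figure D3:**
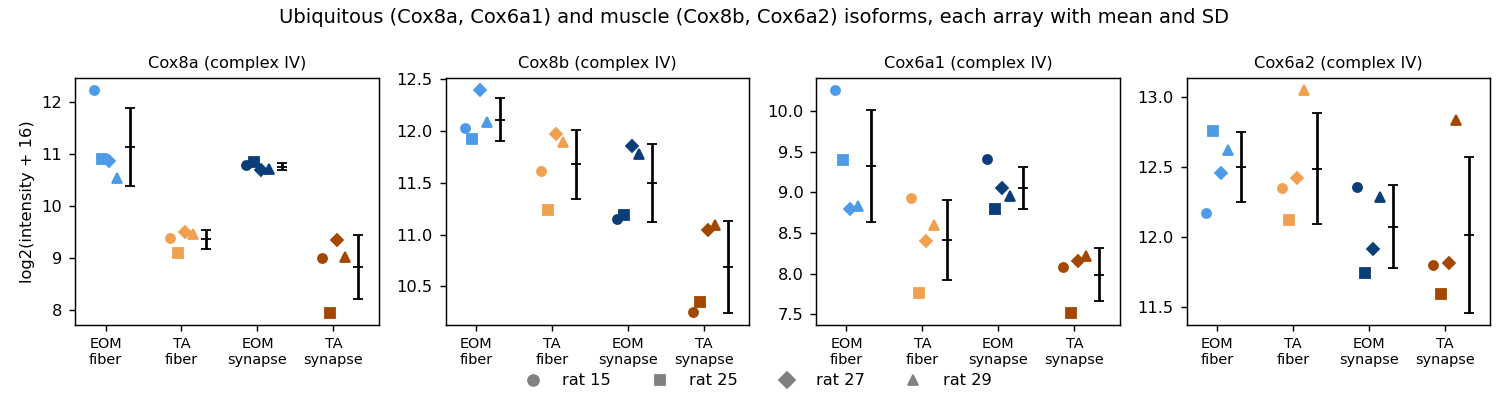
Level in log2(intensity + 16) of the ubiquitous (Cox8a, Cox6a1) and muscle (Cox8b, Cox6a2) isoforms on each array, with marker shapes for the 4 rats and the mean ± SD of 4 arrays beside each group. The y axes differ between panels. Cox8a is higher on all 8 EOM arrays than on any TA array, while Cox6a2 overlaps in all 4 groups.

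Within a rat the ratio of the muscle to the ubiquitous form does not depend on the scaling of whole arrays, apart from the quantile step. Such a ratio is read as a change between groups only, since the probe sets of the 2 genes differ. The log2 ratio of Cox6a2 to Cox6a1 changed from TA to EOM by -1.52, -1.01, -0.36 and -0.66 in the fibre of rats 15, 25, 27 and 29. At the junction the changes were -0.77, -1.14, -0.81 and -1.29. The mean change was -0.89 ± 0.50 (SD, n = 4 rats) in fibre and -1.0 ± 0.25 at the junction, which is 1.85-fold and 2.00-fold. For Cox8b over Cox8a the mean change was -1.35 ± 0.74 in fibre and -1.12 ± 0.66 at the junction, with the same sign in all 4 rats in both places. From fibre to junction the ratios moved little and not the same way in all rats: -0.16 ± 0.82 in EOM and -0.05 ± 0.32 in TA for subunit 6a, and -0.24 ± 0.56 and -0.46 ± 0.54 for subunit 8. The TA value for subunit 6a was -0.38 without quantile normalization. An exact sign-flip test over 4 rats cannot go below a two-sided p of 0.125, so none is given. The other pairs could not be set side by side, as Cox4i2 and Cox6b2 did not pass the filter and the probe set of Cox7a2 names several genes.

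**Figure D4:**
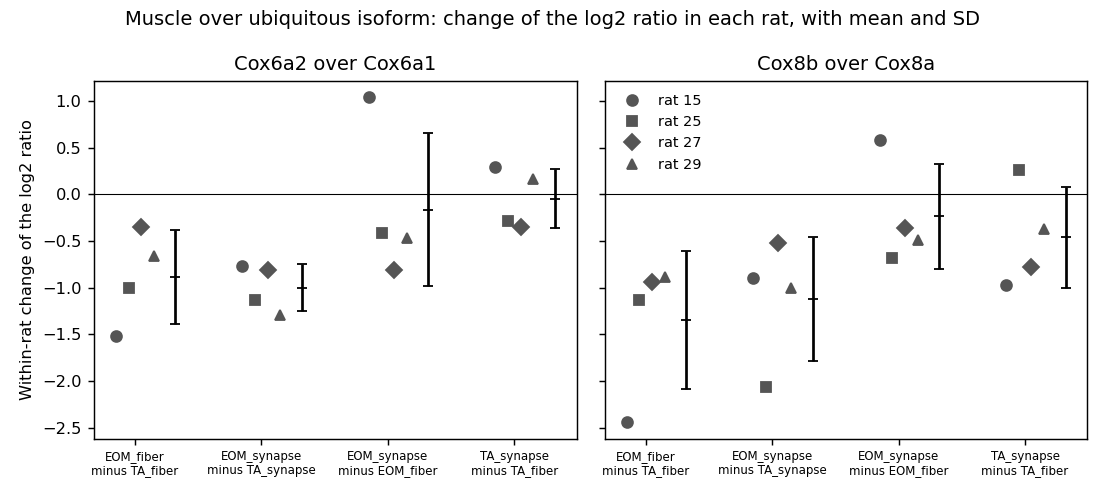
Change of the log2 ratio of the muscle to the ubiquitous isoform between the groups named on the x axis, in each of the 4 rats, with the mean ± SD beside them. In both comparisons of EOM with TA all 4 rats lie below 0, for either pair, whereas the comparisons of junction with fibre have rats on both sides of 0.

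Between the muscles Cox8a was called in both places, Cox8b at the junction alone and Cox6a2 in neither. The 250 bases before their gene starts are shown, from RefSeq on build GRCr8, 5′ to 3′ along the gene. No entry for Cox6a1 was used. Capitals mark the ETS core in Cox8a, the E-box and TATA letters in Cox8b, and the MEF2 and E-box letters in Cox6a2.
Cox8a, chr1:213833624-213833873, minus strand: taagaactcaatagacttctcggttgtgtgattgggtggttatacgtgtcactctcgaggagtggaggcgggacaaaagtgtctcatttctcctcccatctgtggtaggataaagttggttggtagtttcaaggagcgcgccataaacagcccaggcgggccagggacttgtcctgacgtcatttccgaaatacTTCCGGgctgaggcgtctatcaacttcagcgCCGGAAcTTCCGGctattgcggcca
Cox8b, chr1:205408274-205408523, minus strand: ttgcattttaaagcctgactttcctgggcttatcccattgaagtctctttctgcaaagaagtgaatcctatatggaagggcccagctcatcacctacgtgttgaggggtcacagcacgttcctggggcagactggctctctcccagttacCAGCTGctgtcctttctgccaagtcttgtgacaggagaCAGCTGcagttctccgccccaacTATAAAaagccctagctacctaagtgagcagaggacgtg
Cox6a2, chr1:192219717-192219966, minus strand: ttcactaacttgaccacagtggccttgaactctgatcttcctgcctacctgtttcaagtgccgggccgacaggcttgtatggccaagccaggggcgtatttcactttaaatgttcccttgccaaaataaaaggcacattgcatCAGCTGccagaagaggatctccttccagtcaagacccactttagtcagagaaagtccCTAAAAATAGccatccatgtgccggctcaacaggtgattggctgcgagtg
The Cox8a window holds 3 matches to the ETS core CCGGAA, and neither muscle form shown holds any. The Cox8b window holds 2 matches to the E-box CAGCTG and 1 to TATAAA, and the Cox6a2 window holds 1 match to the MEF2 letters (CTA, any 4 bases, TAG) and 1 to the E-box. None of these marked stretches overlaps another. Of the windows read but not shown, those of Cox7a1, also a muscle form, and Cox7b hold no match to any of the letters searched. That of Uqcrq, a complex III gene not called between the muscles, holds 2 to the ETS core.

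The same letters were searched on both strands in the windows of all 78 members with an entry and of 8677 tested genes. CCGGAA lay in 39.7% of the members and 24.6% of the genes, and the NRF1 letters (GCGCA, any base, GCGC) in 15.4% and 9.23%. For TCAAGGTCA, the letters of the estrogen-related receptors, the shares were 1.28% and 0.196%, and the first of these is 1 gene. The MEF2 letters lay in 2.56% and 2.92%, CAGCTG in 10.3% and 12.6%, and TATAAA in 10.3% and 6.70%. A match is a run of letters and was not tied to binding by any measurement here.

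At the junction complex IV had a median of -0.43 in EOM and -0.57 in TA. Called lower in EOM were Cox7b and Cox8b, and in TA Cox7a1, Cox7b, Cox8b and Cox5b. Cox7b, a small structural subunit encoded on the X chromosome, read 11.82, 11.66, 11.998 and 11.81 in EOM_fiber and 10.62, 10.80, 11.38 and 11.28 in EOM_synapse. In TA it read 11.37, 11.21, 11.99 and 12.02 in fibre and 9.82, 10.39, 10.78 and 11.07 at the junction. In neither muscle do the 2 groups overlap. Cox7b differed by -1.14 ± 0.20 at the TA junction (2.20-fold, adjusted p = 0.00218) and by -0.80 ± 0.20 at the EOM junction (1.74-fold, adjusted p = 0.0212). The TA call held without any array or rat. The EOM call was lost without EOM_fiber 15 or 25 or EOM_synapse 15, 25 or 29.

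Cox8b had a difference of -1.0 ± 0.17 at the TA junction (1.99-fold, adjusted p = 0.00209), again in every fit without an array or a rat. Its arrays there read 10.26, 10.34, 11.04 and 11.09, all below the lowest TA_fiber array at 11.24. At the EOM junction the difference was -0.61 ± 0.17 (adjusted p = 0.0389), lost without any 1 of 10 of the 16 arrays. Cox5b, a nuclear subunit on the matrix side, was lower at the TA junction, with a difference of -0.67 ± 0.17 (adjusted p = 0.0221), with 12.63, 12.03, 12.73 and 12.28 at the junction and 13.39, 12.66, 13.29 and 13.02 in fibre. The groups overlap by 1 junction array, and the call was lost without any 1 of 6 arrays (TA_fiber 15, 27 or 29, TA_synapse 15, 25 or 29).

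Cox7a1, the muscle form of subunit 7a, had the largest fall at the TA junction among the members, -1.70 ± 0.49 (adjusted p = 0.0407), but not in every rat. TA_fiber read 8.22, 5.37, 8.27 and 8.53, and TA_synapse 5.75, 6.07, 5.72 and 6.02. The TA_fiber array of rat 25 lay below all 4 junction arrays, and in that rat the difference was 0.71 where in the others it was -2.47, -2.54 and -2.50. The call was lost without any 1 of 11 of the 16 arrays. In EOM the groups did not overlap (9.28, 7.57, 7.52 and 8.68 against 7.16, 6.90, 6.54 and 6.94), and the difference of -1.38 ± 0.49 was not called (adjusted p = 0.0931). Cox4i1 differed by -0.64 and -0.91 at the EOM and TA junctions and was called at neither.

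Ndufa4, first named as a complex I subunit and now placed in complex IV, read 12.85 ± 0.09 in EOM_synapse and 12.32 ± 0.28 in TA_synapse. It was called higher in EOM by 0.53 ± 0.17 (adjusted p = 0.04995), right at the threshold, and lost the call without any 1 of 14 of the 16 arrays. Between the junctions Cox5b was also higher in EOM, by 0.57 ± 0.17 (adjusted p = 0.0354), and lost the call as deposited (adjusted p = 0.33). Without EOM_synapse 25 or 29 or TA_synapse 15, 25 or 29 that call was lost too.

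**Figure D5:**
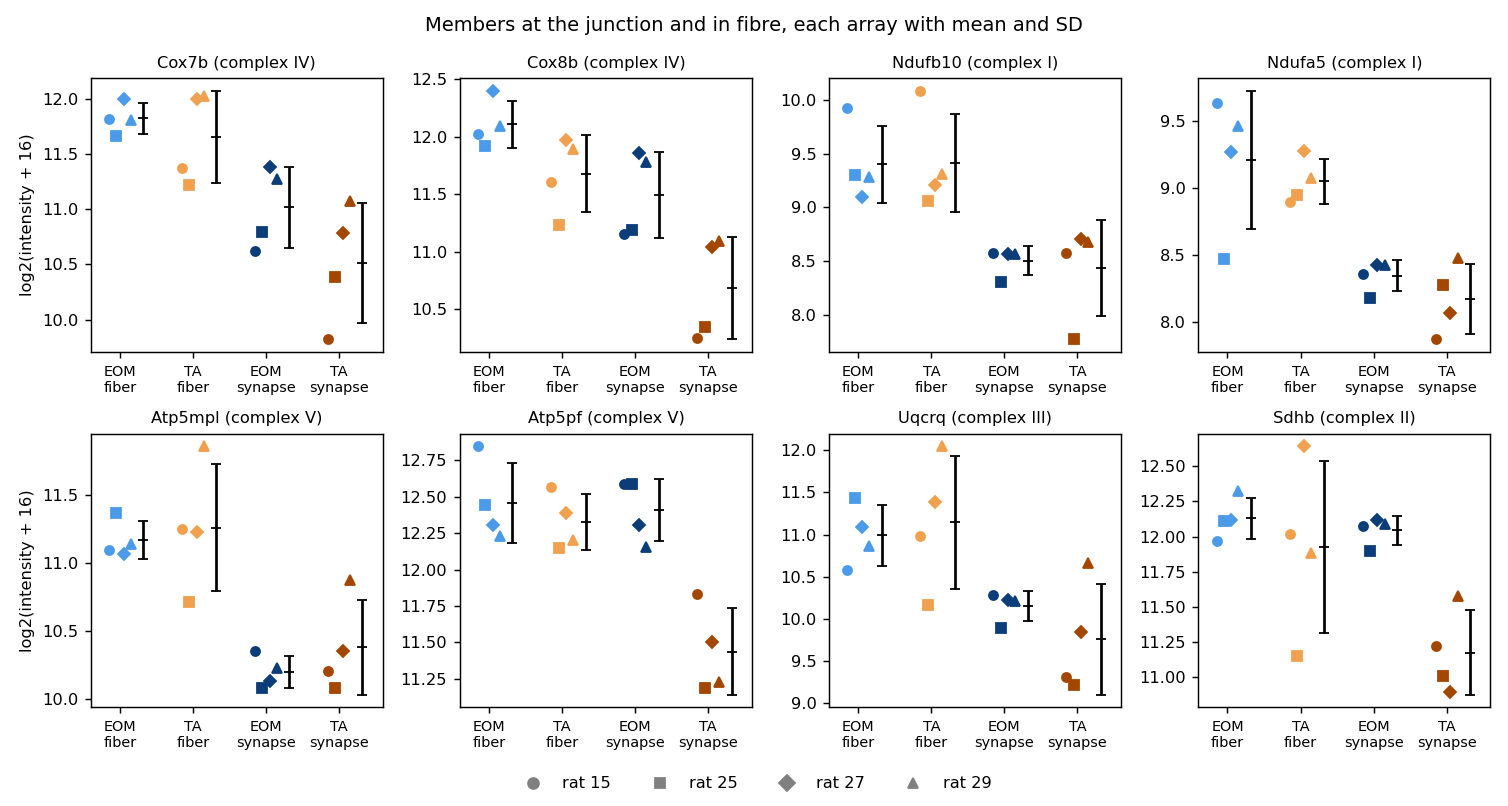
Level in log2(intensity + 16) of 8 members on each array, with marker shapes for the 4 rats and the mean ± SD of 4 arrays beside each group. The y axes differ between panels. Cox7b, Cox8b, Ndufb10 and Ndufa5 have junction arrays below the fibre arrays of the same muscle, while Atp5pf is low in TA_synapse alone and the TA_synapse arrays of Sdhb overlap those of TA_fiber.

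Complex I, the NADH dehydrogenase and the largest of the complexes, had 0 of its 34 measured genes called between the fibres of the muscles, with a median of -0.09. At the junction its median was -0.51 in EOM, with 6 called lower, and -0.67 in TA, with 10 called lower. All 34 had a negative difference at the TA junction and 31 at the EOM junction. The 6 core subunits, of the kind that bacteria also have, had medians of -0.40 in EOM and -0.68 in TA, and the 28 accessory subunits around them -0.57 and -0.67.

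Ndufb10, an accessory subunit of the membrane arm, read 9.92, 9.30, 9.10 and 9.28 in EOM_fiber and 8.58, 8.30, 8.57 and 8.56 in EOM_synapse. In TA it read 10.08, 9.06, 9.20 and 9.31 in fibre and 8.57, 7.77, 8.71 and 8.68 at the junction. The junction arrays lay below the fibre arrays in both muscles. The differences were -0.90 ± 0.22 (adjusted p = 0.0196) and -0.98 ± 0.22 (adjusted p = 0.0112). The EOM call was lost without EOM_fiber 15 or 25 or EOM_synapse 15 or 29, and the TA call without TA_synapse 25.

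Ndufa5, an accessory subunit of the matrix arm, differed by -0.86 ± 0.23 and -0.88 ± 0.23 at the EOM and TA junctions (adjusted p = 0.0266 and 0.024). Its junction arrays read 8.35, 8.18, 8.42 and 8.42 in EOM and 7.87, 8.28, 8.07 and 8.47 in TA. No TA_fiber array was below 8.90, and the lowest EOM_fiber array stood at 8.47, so the groups do not overlap. Both calls were easily lost, with 7 and 4 of the 16 single arrays whose removal ended them. Ndufa3 was lower at the EOM junction, with a difference of -1.0 ± 0.21 (2.01-fold, adjusted p = 0.00934). It read 12.40, 11.48, 11.57 and 11.41 in EOM_fiber and 10.74, 10.62, 10.77 and 10.72 at the junction, with no overlap. The Ndufa3 call held without any single array and in all 3 scalings, as no other EOM junction call of a member did, and was lost without rat 15 or rat 27 (adjusted p up to 0.0793).

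Ndufc1, another membrane arm subunit, had the largest fall of complex I at the TA junction, -1.10 ± 0.31 (2.14-fold, adjusted p = 0.0371), though its groups overlap (10.99, 10.40, 11.05 and 11.58 against 9.60, 9.10, 10.35 and 10.60). The call was lost without any 1 of 6 arrays (EOM_synapse 27, TA_fiber 15, 27 or 29, TA_synapse 15 or 25). Ndufv3, an accessory subunit next to the NADH site, was lower at the EOM junction, with a difference of -0.94 ± 0.27 (adjusted p = 0.0442). A second, dimmer probe set of Ndufv3 gave -0.14 there, and any 1 of 11 of the 16 arrays ended the call. The other complex I genes called were Ndufs7 and Ndufs3 at both junctions, core subunits with iron-sulphur or structural roles, and at the TA junction Ndufb7, Ndufb6, Ndufb9, Ndufv1 and Ndufs1. They differed by -0.87 to -0.63 at the TA junction, each in all 4 rats, and each call was lost without 3 to 14 of the single arrays. At the EOM junction Ndufs7 and Ndufs3 differed by -0.82 and -0.73.

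Ndufv1, which holds the flavin that takes electrons from NADH, and Ndufs1, its large iron-sulphur partner, had differences near 0 at the EOM junction (0.04 and 0.05). Ndufv1 read 12.03, 11.99, 12.24 and 12.08 in EOM_fiber and 11.66, 12.07, 12.49 and 12.29 in EOM_synapse, a difference of 0.04 with a 95% interval of -0.35 to 0.43. In TA it read 12.04, 11.92, 12.16 and 11.74 in fibre and 11.37, 11.20, 11.42 and 11.35 at the junction, a difference of -0.63 ± 0.18 (adjusted p = 0.0416). So at the junction Ndufv1 was 0.79 ± 0.18 higher in EOM than in TA (1.73-fold, adjusted p = 0.00884), a call held without any single array but not kept as deposited (adjusted p = 0.057) or without rat 25, 27 or 29. For the 2 genes the interaction was 0.67 and 0.68 with adjusted p = 0.324 and 0.301, so the unlike falls did not pass their own test. Between the junctions Ndufc2 was higher in EOM by 0.70 ± 0.19 (adjusted p = 0.0217), lost without EOM_synapse 15 or 25 or TA_synapse 15 or 25 and in both other scalings. Of the genes not called, Ndufs4 varied most within a group, from 9.75 to 12.83 in EOM_fiber and from 9.54 to 12.15 in TA_fiber.

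Complex II, succinate dehydrogenase, is the one complex of the chain with no subunit from the mitochondrial genome, and it works in the citrate cycle as well. Its 4 genes were called at neither junction against fibre after quantile normalization, while as deposited 3 of them were called lower at the TA junction and after median centring 1. In EOM the medians of the 4 stayed at -0.06, with Sdha at -0.03, Sdhb at -0.09 and Sdhd at -0.04, while Sdhc was at -0.43. In TA all 4 had negative differences, from -0.75 for Sdhb to -0.32 for Sdha, with adjusted p from 0.07 to 0.312. As deposited the medians were -0.37 in EOM and -0.86 in TA, and after median centring -0.25 and -0.89.

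At the junction Sdhb, the iron-sulphur subunit, was higher in EOM than in TA by 0.87 ± 0.24 (1.83-fold, adjusted p = 0.0261). It read 12.07, 11.90, 12.12 and 12.09 in EOM_synapse and 11.22, 11.01, 10.89 and 11.58 in TA_synapse, with no overlap. Sdha, the flavoprotein, was higher by 0.58 ± 0.18 (adjusted p = 0.0389), at 12.39 ± 0.09 against 11.81 ± 0.33. Neither was called as deposited (adjusted p = 0.11 and 0.27) or after median centring. The Sdhb call was lost without any EOM_synapse array or TA_synapse 15 or 27, and the Sdha call without any 1 of 10 of the 16 arrays. The 2 membrane anchors Sdhc and Sdhd differed by 0.31 and 0.48 and were not called. A second probe set of Sdhd gave -0.07 for that difference, and -0.48 where the first gave -0.04 for the EOM junction. For the TA junction the second gave -0.70 and the first -0.49.

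Complex III, the cytochrome bc1 complex, was measured by 7 genes, none of which differed between the muscles past the threshold. At the TA junction 2 were called lower, Uqcrq and Uqcrc1. Uqcrq, a small subunit first described as a ubiquinone-binding protein, read 10.98, 10.17, 11.39 and 12.05 in TA_fiber and 9.31, 9.22, 9.85 and 10.66 in TA_synapse. It was lower in each rat, with differences of -1.67, -0.95, -1.54 and -1.39, although the groups overlap. The fitted difference was -1.39 ± 0.32 (2.62-fold, adjusted p = 0.0134), and leaving out TA_fiber 29, TA_synapse 15 or TA_synapse 25 ended the call. In EOM its groups did not overlap, and the difference of -0.84 ± 0.32 was not called (adjusted p = 0.117).

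Uqcrc1, a core protein of the matrix side, was lower at the TA junction, with a difference of -0.77 ± 0.21 (adjusted p = 0.0342), lost without any 1 of 6 arrays (TA_fiber 15, 27 or 29, TA_synapse 15, 25 or 27). Uqcrc2, its partner core protein, went from 12.30 ± 0.31 to 12.43 ± 0.14 in EOM and from 12.60 ± 0.24 to 12.42 ± 0.41 in TA, and was not called. The median of the 7 was -0.61 at the EOM junction and -0.67 at the TA junction. Between the junctions it was 0.13, and -0.06 and -0.05 in the other scalings.

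Complex V, the ATP synthase, had a median of -0.42 at the EOM junction and -0.66 at the TA junction over 15 genes, with 2 and 5 called lower. The 5 genes of the F1 part, the catalytic head with its central stalk, had a median of 0.06 at the EOM junction. Atp5f1a, Atp5f1b and Atp5f1c were at 0.08, 0.06 and 0.14, but Atp5f1d and Atp5f1e at -0.64 and -0.73. The 10 other genes, of the membrane part and peripheral stalk, had a median of -0.43 and were all negative. At the TA junction the medians were -0.23 and -0.72. This contrast within the enzyme was not tested, and Atp5f1a, Atp5f1b and Atp5f1c are among the brightest tertile of the members, which had a median of -0.26 at the EOM junction.

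Atp5pf, known as coupling factor 6, was the one member called both between muscles and at a junction with calls that held without any array or rat. It read 12.57, 12.15, 12.39 and 12.20 in TA_fiber and 11.83, 11.19, 11.51 and 11.23 in TA_synapse. In EOM it read 12.84, 12.44, 12.30 and 12.23 in fibre and 12.59, 12.59, 12.31 and 12.16 at the junction. TA_synapse lies below all other arrays, and the other 3 groups overlap. The fall at the TA junction was -0.89 ± 0.17 (1.85-fold, adjusted p = 0.00392) and the difference between the junctions 0.97 ± 0.17 (1.96-fold, adjusted p = 0.00153). The latter was not called after median centring (0.73, adjusted p = 0.0606). At the EOM junction the difference was -0.05 with a 95% interval of -0.41 to 0.32. The interaction was 0.84 ± 0.24, positive in all 4 rats, with an unadjusted p under 0.05 and an adjusted p of 0.141.

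Atp5mpl, a small subunit of the membrane part, fell at both junctions, with differences of -0.97 ± 0.21 in EOM (adjusted p = 0.0113) and -0.88 ± 0.21 in TA (adjusted p = 0.0178). EOM_fiber read 11.10, 11.37, 11.07 and 11.14 and EOM_synapse 10.35, 10.09, 10.14 and 10.23. The EOM groups do not overlap, those of TA do, and the EOM call was lost without EOM_synapse 29. In TA any of the arrays TA_fiber 27, TA_fiber 29, TA_synapse 15 or TA_synapse 25 ended the call when left out. Atp5me was lower at the EOM junction, with a difference of -1.25 ± 0.35 (adjusted p = 0.039). Its EOM_fiber arrays spread from 9.76 to 12.25, and the call was lost without any 1 of 6 arrays (EOM_fiber 15 or 25, EOM_synapse 15, 25 or 29, TA_synapse 15). A second, dimmer probe set of Atp5me, above the array median on 3 arrays, gave 0.66 for that difference. At the TA junction Atp5f1d (-0.84), Atp5pd (-0.75) and Atp5mk (-0.70) were also called lower, in all 4 rats, and those calls were lost without 2 to 12 of the single arrays.

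Among the genes that carry the symbols without being subunits, Ndufaf4 and Atp5if1 set the fibres apart. Ndufaf4, a complex I assembly factor, read 9.43, 9.58, 9.17 and 8.76 in EOM_fiber and 10.82, 10.18, 10.03 and 10.04 in TA_fiber. The groups do not overlap, and the difference was -1.03 ± 0.19 (2.05-fold, adjusted p = 0.00246), held without any array or rat and in all 3 scalings. At the junction the difference between muscles was -0.54 (adjusted p = 0.0717). Atp5if1, the inhibitor of the ATP synthase, was higher in EOM fibre by 0.83 ± 0.18 (adjusted p = 0.00626), at 10.23 ± 0.22 against 9.40 ± 0.31. A dimmer probe set of Atp5if1 gave -0.13 for the same comparison, and after median centring (adjusted p = 0.17) or without rat 25 or 27 the gene was not called.

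The assembly factors Ndufaf8 and Ndufaf3 were lower at the EOM junction, with differences of -0.92 ± 0.20 (adjusted p = 0.0105) and -0.96 ± 0.28 (adjusted p = 0.0445). Ndufaf8 read 9.22, 8.89, 8.69 and 9.03 at the EOM junction and 10.55, 9.72, 9.71 and 9.52 in EOM_fiber, with no overlap, and its call held without any single array but not without rat 15, 25 or 27. The Ndufaf3 call was lost without any 1 of 13 of the 16 arrays. At the TA junction Ndufaf8 and Ndufaf4 were called lower (-0.72 and -0.67), lost without 7 and 10 of the single arrays. Cox7a2l, which joins complexes III and IV, differed by -0.03 and 0.12 at the EOM and TA junctions and was not called.

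The called members of the 2 junctions shared 8 genes: Atp5mpl, Cox7b, Cox8b, Ndufa5, Ndufaf8, Ndufb10, Ndufs3 and Ndufs7. They make up 66.7% of the 12 called in EOM and 34.8% of the 23 called in TA. Over the 4 comparisons of 2 groups, 34 members were called in at least 1 and 49 in none. The matching shares of all genes, for this count and for the overlap of the junction calls, were not counted. Neither is therefore read as a trait of the members. The differences were more negative among the dimmer members. Cut by mean level into groups of 28, 27 and 28, the medians at the EOM junction were -0.69, -0.59 and -0.26 from dim to bright, and at the TA junction -0.78, -0.73 and -0.48. The 989 other genes at or above the lower quartile of the members' levels had medians of -0.06 and -0.01.

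Genes that work beside the respiratory chain were read from lists chosen with earlier results of these data known. Of 15 measured citrate cycle genes, which feed the chain with NADH and succinate, 2 were called lower at the EOM junction (Mdh2 and Dlst) and 3 at the TA junction (Dlst, Ogdh and Pdhx), with 0 higher and medians of -0.34 and -0.45. The citrate cycle count called lower was 3 as deposited and 0 after median centring at the EOM junction, and 11 and 2 at the TA junction. For all these lists the shares of all genes called lower are the 4.51% and 3.53% given above for the EOM and TA junctions. Citrate synthase, Cs, was not called in EOM fibre (0.59 ± 0.19, adjusted p = 0.0529). Of 33 assembly factors outside the rule, 3 were lower at the EOM junction (Cox14, Ecsit and Uqcc2) and 2 at the TA junction (Ecsit and Uqcc2), with medians of -0.44 and -0.47. Between the muscles 3 were lower in EOM fibre (Cox19, Nubpl and Ttc19) and 4 at the EOM junction, with 0 higher. In those comparisons 7.16% and 8.6% of all genes were called lower. As deposited these 2 counts of assembly factors were 3 and 2, and after median centring 2 and 0. Their counts at the EOM and TA junctions against fibre were 1 and 4 as deposited, and 0 at both after median centring. Of 19 genes of mitochondrial protein import, 0 were called at either junction, with medians of -0.48 and -0.35.

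The list of electron carriers and nucleotide exchange, 19 measured genes, had medians of -0.26 and -0.35 at the EOM and TA junctions. At the EOM junction 2 were called lower (Ucp3 and Coq8a) and 0 higher, and at the TA junction 4 lower (Coq3, Coq7, Coq8a and Etfb) and 1 higher (Ucp2), with 9 lower as deposited. Ucp3, an uncoupling protein of muscle, was lower at the EOM junction (-1.32 ± 0.25, adjusted p = 0.00447), and Ucp2 was higher at the TA junction (1.58 ± 0.30, adjusted p = 0.00388). Coq8a, of ubiquinone synthesis, was lower at both (-0.91 and -0.94). Slc25a5, a ubiquitous form of the ADP/ATP carrier, was higher in EOM in fibre and at the junction (0.87 and 1.06), as was Coq7 (0.85 and 1.12). In fibre this list had 3 genes called higher in EOM and 0 lower, where 8.4% and 7.16% of all genes were. Those counts became 2 and 3 as deposited and 0 and 3 after median centring, where neither gene was called higher. Between the junctions the list had 3 called higher in EOM, and 2 in both other scalings. Ckmt2, the mitochondrial creatine kinase of muscle, was higher at the EOM junction than at that of TA (0.90).

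Regulators of mitochondrial genes had medians of -0.21 and -0.19 at the junctions over 21 measured genes. Ppargc1a, a coactivator that drives mitochondrial biogenesis, read 8.37 ± 0.48 in TA_synapse, 9.68 ± 0.39 in TA_fiber, 10.21 ± 0.28 in EOM_synapse and 10.50 ± 0.32 in EOM_fiber. Within TA its junction level was below the fibre level (-1.32, adjusted p = 0.00572), and it was higher in EOM than in TA at the junction (1.85, adjusted p = 0.000356). Its relative Ppargc1b was lower at both junctions (-0.88 and -1.19), and Perm1, a muscle partner of these factors, was lower at the TA junction (-1.10). Esrrg, a nuclear receptor that acts with them, was higher in EOM in both places (0.80 and 1.02). Tfam, which maintains the mitochondrial genome, was lower in EOM fibre (-0.52, adjusted p = 0.0352). In fibre the regulators had 1 gene called higher in EOM and 2 lower, where 8.4% and 7.16% of all genes were. Those counts became 1 and 1 as deposited and 0 and 1 after median centring, so Esrrg was not called higher in fibre there.

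Of 13 subunits encoded in the mitochondrial genome, 2 were measured, COX1 and COX2, and neither was called in any comparison. COX1 stood at the top of the scale, 15.59 on all 8 junction arrays, where quantile normalization leaves no room for a difference. COX2 read 14.96 ± 0.19 in EOM_fiber and 14.86 ± 0.17 in EOM_synapse, and 14.51 ± 0.32 and 14.53 ± 0.29 in TA. The median of the 2 was -0.03 and 0.04 at the EOM and TA junctions and turned to -0.57 and -0.34 on the values as deposited, so its direction was not settled.

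Markers of other cell types differed between junction and fibre as well. Of 8 measured Schwann cell markers, 6 rose at each junction, and their summed intensity lay between 1915 and 2848 in EOM_fiber and 669 and 953 in TA_fiber, and between 7664 and 14444 in EOM_synapse and 3453 and 5653 in TA_synapse. Of 9 fibroblast markers, 5 rose at the EOM junction and 7 at the TA junction. Their sums were 4220 to 18500 and 1554 to 6262 in EOM_fiber and TA_fiber, and 18196 to 32390 and 12469 to 26533 in EOM_synapse and TA_synapse. A measured marker cannot be at 0 on this scale, because a constant is added to every intensity. Levels above 0 therefore do not show that these cells were present in every region. The part of these cells in the fall of the respiratory chain was not tested.

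Of 11 endothelial markers, 1 rose at each junction (Plvap), with 5 lower in EOM and 4 in TA, and sums of 3857 to 5226 and 2439 to 3099 in EOM_fiber and TA_fiber against 2136 to 3148 and 3007 to 4394 in EOM_synapse and TA_synapse. The endothelial counts called lower were 5 and 3 as deposited, and 0 at both junctions after median centring. Of 9 macrophage markers, 1 was lower at the EOM junction and 0 changed at the TA junction, and 5 were higher in EOM than in TA fibre (sums of 1456 to 2617 against 721 to 1055). At the EOM junction 0 macrophage markers were called lower in the other scalings. Smooth muscle and pericyte markers had 1 of 8 higher and 3 lower in EOM, and 1 higher and 2 lower in TA. After median centring 0 of them were lower in EOM and 1 in TA. Only 2 of 10 motor axon markers were measured, of which Gap43 rose at the TA junction.

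Muscle fibre genes were set beside the members for the same regions. Of 17 measured, 3 fell at the EOM junction (Myh2, Myh7 and Casq1) with a median of -0.48, and 2 at the TA junction (Mb and Myh1) with a median of -0.07. Their sums were 264457 to 305568 and 287457 to 307569 in EOM_fiber and TA_fiber, and 187216 to 218550 and 240168 to 288586 in EOM_synapse and TA_synapse. In EOM the members' median of -0.43 was thus close to that of the fibre genes, and in TA the members' median of -0.63 lay below theirs. Some fibre genes stood near the top of the scale, where quantile normalization leaves little room for a difference. Acta1 read 15.31 in TA_fiber and 15.34 in TA_synapse, and Ckm 15.24 and 15.255. On the values as deposited the fibre genes' medians were -0.80 and -0.53 against the members' -0.65 and -0.86. After median centring they were -0.68 and -0.56 against -0.53 and -0.90. The order of the 2 medians was as before in each muscle, but in TA they lay closer together. No test of the difference between members and fibre genes was made. Mb, the oxygen store myoglobin, read 13.85 ± 0.30 in TA_fiber and 12.81 ± 0.61 in TA_synapse.

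The ratio of the 3′ to the 5′ end of control genes served as a sign of RNA quality. The log2 ratio of the 3′ to the 5′ control probe sets of Gapdh ran from 2.96 to 4.22 over the arrays and that of actin from 2.28 to 4.65, with the widest ranges for Gapdh in TA_synapse (2.96 to 4.22) and for actin in EOM_synapse (2.28 to 4.19). Within each muscle the junction and fibre ranges overlapped for both controls, while the actin range of EOM_fiber (2.95 to 3.45) lay below that of TA_synapse (3.63 to 4.29). The part of RNA quality in the differences was not tested.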

How the data were processed

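Laser-captured muscle regions of 4 rats were measured on 16 Affymetrix rat arrays. Per the labels' protocols, RNA went through a pair of amplification rounds primed at the poly(A) tail and was labelled with biotin, which weighs the 3′ end of transcripts. The authors deposited an intensity for every probe set and array, on a linear scale and scaled to a common array mean. The sources used here name no software for the step from probes to probe sets.

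The 57 control probe sets were left out of 31099. Array medians ran from 33.4 to 57.0, and log2(intensity + 16) values were quantile normalized. The filter asked for a value over the array's own median on 4 or more arrays, and a gene with several such probe sets was represented by the brightest on average. Symbols follow GEO's platform annotation, in which 20832 probe sets carry 1 gene and 436 carry several. Of the latter, 7 name Atp5mc1, Atp5mc2, Cox7a2, Cox5a, Uqcrb, Ndufs5 or Ndufa10 beside another gene and were not used, so those genes, except Cox5a by another probe set, are not among the members.

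The linear model, fitted by limma 3.58.1 (R 4.3.3), held a mean for each of the 4 groups plus a fixed term for each rat, with 9 residual and 4.57 prior degrees of freedom. In each of 5 contrasts p-values were adjusted by Benjamini-Hochberg over 10416 genes; the interaction is EOM_synapse minus EOM_fiber less TA_synapse minus TA_fiber. The steps were tested on simulated data. The numbers in the titles were read as the 4 rats of the design text. Deviations from the group means correlated over genes in the 24 same-rat pairs of arrays with a mean r of 0.112 (-0.0667 to 0.245, 16 over 0.1). For 14 of 16 arrays the mean correlation with the arrays of the other groups was highest for their own rat.

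The members and gene lists were chosen with earlier results of these data known. Members named are up to 4 called per complex and comparison with 1 sign in all 4 rats, all of complex II and the tissue isoforms; the other members named, and the list genes beyond 3 a list, were chosen after their values were seen. Alternatives covered the block, the scaling, the pseudocount, the filter, the variance prior, the choice of probe set, and leaving out each array and rat.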

Additional observations from a re-analysis of the deposited data

Results flagged for a closer look

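In 152 groups of 4 arrays of named members, 12 had 1 array far from the other 3, which is 7.89% where chance gives about 1 in 20. In EOM_fiber, rat 15 was high for Atp5pd (12.46, the others 11.71 to 11.74), Ndufa3 (12.40, the others 11.41 to 11.57) and Sdhd (13.30, the others 12.93 to 12.95). Rat 25 was low for Cox7a1 in TA_fiber (5.37, the others 8.22 to 8.53), for Ndufb10 in EOM_synapse (8.30, the others 8.56 to 8.58) and TA_synapse (7.77, the others 8.57 to 8.71), and for Ndufa4l2 in TA_synapse (4.36, the others 6.03 to 6.34). Ndufa4 was high in TA_fiber of rat 27 (13.16, the others 12.70 to 12.78). Sdhd was low in EOM_synapse of rat 29 (12.66, the others 13.10). Cox6b2, below the filter, was high in EOM_fiber of rat 27 (5.74), EOM_synapse of rat 29 (5.83) and TA_synapse of rat 25 (5.27), with the other arrays of those groups between 4.13 and 4.39.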

How the results depend on the processing

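None of the 49 calls of members changed sign in the 31 alternative fits, and the members' median stayed negative at both junctions in all of them. In fibre the median between muscles (0.01) reversed to -0.20 as deposited, -0.35 after median centring, -0.03 without EOM_fiber 15, -0.08 without EOM_fiber 25, -0.05 without TA_fiber 25, -0.03 without rat 15 and -0.10 without rat 25. Median centring moved the median of all genes by 0.12 at the EOM junction and 0.13 in the interaction.

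Without the replicate block the counts called lower were 6 at the EOM junction and 14 at the TA junction, against 12 and 23 with it. With the rat as a random block the EOM count was 7. Across the 41 calls of named members, 24 were kept without the block.

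EOM_fiber against TA_fiber had 1 member higher and 2 lower after median centring, and 1 and 0 from its own arrays alone. EOM_synapse against TA_synapse had 4 higher as deposited, 2 after median centring and 16 with a mean-variance trend; 3 were lower with the trend, 3 at a pseudocount of 64 and 1 with a stricter filter. The EOM junction had 1 lower after median centring, 29 with the trend, 7 with no filter, 6 from its own arrays alone and 26 at a pseudocount of 64, and its median was -0.65 as deposited. The TA junction had 54 lower as deposited, 43 with the trend, 13 with no filter, 8 from its own arrays alone and 41 at a pseudocount of 64, with medians of -0.86 as deposited and -0.90 after median centring. In the interaction 1 member was higher with the trend, and its median was 0.36 after median centring. The change of Cox6a2 over Cox6a1 at the TA junction was -0.38 as deposited and after median centring. Apart from the fibre median, where given, the causes were not tested.

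Leaving out 1 array or rat gave 1 to 3 higher and 1 to 2 lower in fibre (median -0.10 to 0.12), and 3 to 12 higher between junctions (median 0.05 to 0.24). The EOM junction had 0 to 18 lower (median -0.58 to -0.32) and the TA junction 3 to 28 (median -0.71 to -0.55). The interaction median ran from 0.051 to 0.26. With 4 rats and few residual degrees of freedom, single calls are less firm than the medians.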
